A study of Mus musculus with 18 samples.

Results

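Mael encodes maelstrom, a protein of germ granules that is needed for meiosis and for the silencing of transposons in the male germ line. It works with the PIWI-interacting RNA (piRNA) pathway, in which small RNAs bound to PIWI proteins direct the cleavage of transposon transcripts and the methylation of their DNA. In adult mammals its transcript is known mainly from germ cells. Outside the germ line many such genes are kept silent by PRC1.6, a polycomb complex that contains PCGF6 as its defining subunit, together with E2F6 and the paired factors MGA and MAX, which bind DNA. Mael was chosen for its levels in Pcgf6 knockout liver and brain and for those levels as a share of the testis level, and it is 1 of the 52636 genes in the files. These values are therefore described here without a test, and only the knockout comparison in testis is tested for Mael. Counts of list members in liver and brain are given without it, except in the closing section on processing, where it is included.

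The series asked how loss of Pcgf6 alters transcripts of liver, brain and testis. Poly-A RNA was sequenced from adult male C57BL/6 mice aged 8 weeks, either wild type (WT) or labelled as Pcgf6 knockout (KO), with 3 libraries of each genotype in each of the 3 tissues and 18 libraries in all. The labels number WT libraries 1 to 3 and KO libraries 4 to 6 in every tissue. They do not describe the knockout allele or say whether it acted in all cells, and they do not say that each library came from an animal of its own, so the p-values measure the spread between these libraries, which may in part be technical. The liver libraries held 18990130 to 23529098 reads, those of brain 20759022 to 23183662 and those of testis 20098777 to 23335596.

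Pcgf6 itself (ENSMUSG00000025050) was measured first as a check of the labels. In liver it was listed at 4.99, 4.08 and 5.66 FPKM in WT and at 2.66, 1.66 and 1.44 FPKM in KO libraries. The unit FPKM divides a gene's fragments by its length in kilobases and by a size of the library. In testis it was listed at 20.4, 19.9 and 22.3 FPKM in WT and at 10.6, 9.58 and 9.58 FPKM in KO. In brain the gap was smaller, with 4.58, 5.18 and 5.29 FPKM in WT and 3.30, 4.20 and 4.42 FPKM in KO. In each tissue the highest KO value was under the lowest WT value, a position shared by 4.58% (liver), 4.09% (brain) and 4.32% (testis) of all genes tested. Reads of the gene remained in all KO libraries, and the difference did not pass the test in any tissue (limma adjusted p = 0.485 in liver, 0.9998 in brain, 0.0638 in testis). It passed in testis with equal library sums (adjusted p = 0.0473), with voom on recovered reads (0.0423) and when the 18 libraries were fitted together (0.0329), and in liver with the last of these (0.00109). In brain it passed with none of them. Marker lists fitted the tissue labels: in CPM, which are reads scaled by the library total, 8 hepatocyte markers summed to at least 82666 in liver libraries and at most 723 in brain, and 8 neuron markers to at least 7539 in brain and at most 14.2 in liver.

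Mael (ENSMUSG00000040629) lies on the minus strand of mm10 chromosome 1, from 166201201 to 166238747. It is annotated as protein coding. The gene length behind the deposited values is 1733 bases, which equals the joined exons of the 2 transcripts in the GENCODE annotation (release M21). Mael-201 has 12 exons and codes for 434 residues, and Mael-202 has 11 exons and codes for 420. The files give 1 value per gene, so the transcripts cannot be told apart. No other gene of the files overlaps Mael, so its reads are not shared with an overlapping or antisense gene.

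The sequence just before the start of transcription is shown for Mael and for the pair of genes whose levels followed it most closely (below), because PRC1.6 reaches its targets through factors that bind short motifs there. Each line holds the 250 bases before the RefSeq start on build GRCm38.p6, on the strand of the gene. Capitals mark CACGTG, the E-box bound by MAX-containing pairs, and TCCCGCC, which is GGCGGGA read on the other strand, a form of the E2F site.
Mael, chr1:166238745-166238994, minus strand: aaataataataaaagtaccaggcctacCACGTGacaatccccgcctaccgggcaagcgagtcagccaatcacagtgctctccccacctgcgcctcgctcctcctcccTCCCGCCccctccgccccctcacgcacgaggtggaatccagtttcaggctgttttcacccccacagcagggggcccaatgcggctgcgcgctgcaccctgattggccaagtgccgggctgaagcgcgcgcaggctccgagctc
Slc25a31, chr3:40708621-40708870, plus strand: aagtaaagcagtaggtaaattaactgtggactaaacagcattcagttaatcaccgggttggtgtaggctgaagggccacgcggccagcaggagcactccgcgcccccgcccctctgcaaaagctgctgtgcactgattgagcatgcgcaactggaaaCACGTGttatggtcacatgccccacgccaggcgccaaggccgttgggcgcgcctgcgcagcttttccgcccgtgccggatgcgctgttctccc
Syce1, chr7:140787855-140788104, minus strand: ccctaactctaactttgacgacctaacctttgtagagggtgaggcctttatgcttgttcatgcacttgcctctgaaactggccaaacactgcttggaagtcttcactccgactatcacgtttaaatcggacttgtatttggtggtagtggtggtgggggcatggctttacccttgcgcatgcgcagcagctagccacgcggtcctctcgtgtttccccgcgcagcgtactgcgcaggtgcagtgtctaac

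The Mael window holds 1 CACGTG, which begins 223 bases before the start, and 1 TCCCGCC, which begins 143 bases before it. Slc25a31 has 1 CACGTG, 93 bases before its start, and no GGCGGGA on either strand. Syce1 has neither motif in this window. Among the 32851 RefSeq windows of the same length, 6.02% hold CACGTG, 9.75% hold GGCGGGA on either strand and 0.868% hold both. The motifs do not overlap each other. The Mael window also holds 18 CpG dinucleotides, against a median of 6 over all windows, and 78.3% of the windows hold fewer. These are matches of letters only, and binding was not measured.

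In WT liver no Mael read was found in any library. Taken as a one-sided 95% limit, a count of 0 allows up to 3 reads per library, which at these depths is 0.113 to 0.130 FPKM. In KO liver the 3 libraries held 409, 237 and 392 reads, with two-sided 95% exact Poisson intervals of 370 to 451, 208 to 269 and 354 to 433. These intervals and limits cover counting error only, since PCR copies are not independent molecules. The deposited levels were 18.8, 8.82 and 17.5 FPKM, a mean of 15.0 ± 5.42 (SD, n = 3). The KO mean was 125 times the mean limit set by 3 reads per WT library, so the fold over WT was at least 125. The lowest KO library was still 67.6 times the highest of those limits, so the groups did not overlap.

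In WT brain Mael had 3, 0 and 10 reads, or 0.0624, 0 and 0.211 FPKM (0.0912 ± 0.109, SD, n = 3). In KO brain it had 448, 288 and 492 reads, or 10.3, 6.11 and 10.5 FPKM (8.999 ± 2.51, SD, n = 3). The ratio of means was 98.7, and the lowest KO library stood 28.9-fold above the highest WT library. All KO libraries of liver and brain were thus above all their WT libraries; every KO library exceeded every WT library for 4.94% of the genes tested in liver and 4.99% in brain, and since Mael was chosen on these contrasts nothing is read from that position. In bulk tissue, a transcript present in few cells and a low level in many cells cannot be told apart.

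**Figure D1:**
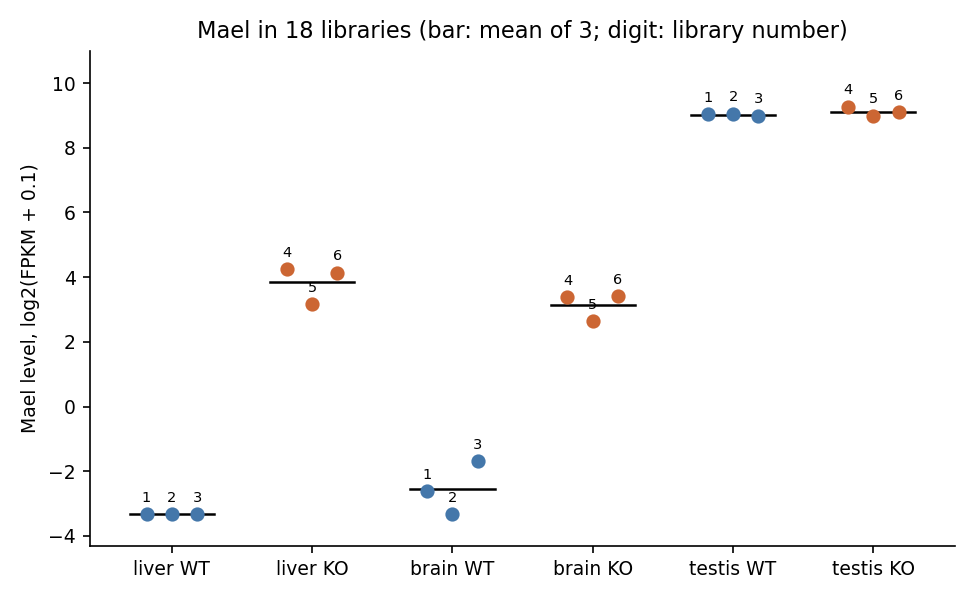
Mael in each of the 18 libraries as log2(FPKM + 0.1), by tissue and genotype; each point is 1 library, the digit is its number in the labels and the bar is the mean of 3. WT liver sits at the floor of the scale, KO liver and KO brain between 6.11 and 18.8 FPKM, and all testis libraries between 506 and 620 FPKM.

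Among the 22027 protein-coding genes of the files, ordered by FPKM within a library, Mael ranked 2674th, 4604th and 2785th in the KO liver libraries and 4145th, 6233rd and 4007th in the KO brain libraries. It ranked 42nd to 48th in the 6 testis libraries. The KO libraries of liver and brain therefore carried Mael at a level that placed it in the upper part of the expressed genes of those tissues.

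The KO libraries were unequal. The Poisson intervals of KO 5 in liver (208 to 269 reads) and in brain (256 to 323 reads) lay below those of the other two KO libraries of their tissue. In CPM per kilobase of gene length, KO 5 held 5.81 in liver against 12.4 and 11.9 in KO 4 and KO 6, and 7.39 in brain against 12.5 and 13.1. In testis, too, KO 5 had the lowest KO value, 508.6 FPKM against 620 and 546. The coefficient of variation was 36.0% in KO liver and 27.8% in KO brain, against 2.65% in WT testis and 10.2% in KO testis. The labels do not state that a number marks the same animal in different tissues. If it does, the low KO 5 values of the tissues are not independent.

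In WT testis Mael was listed at 525, 533 and 506 FPKM (521.6 ± 13.8, SD, n = 3), from 21438 to 23805 reads per library. In KO testis it was listed at 620, 509 and 546 FPKM (558 ± 56.7, SD, n = 3), from 22180 to 24328 reads. The ranges overlapped, since KO 5 lay between WT 3 and WT 1; they did not overlap for 11.9% of all genes tested in this tissue. The log2 fold change, KO minus WT, was 0.09 ± 0.11 (SE), with a 95% interval from -0.17 to 0.36, or from 0.889- to 1.28-fold (limma, adjusted p = 0.882 over 22341 genes). Mael was not called, and neither were nearly all other genes of this tissue: the share of tested genes called was 0.00448%, which is 1 gene, and 922 had an unadjusted p under 0.05. Of the tested genes 62.6% had a lower log2 fold change than Mael. A change of more than 1.28-fold upward lies outside the interval, and the interval spans smaller changes in either direction.

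The size of the KO level relative to testis depended on the scale. FPKM in these files rest on library sizes that differ from the read totals, by 1.44- to 1.52-fold in liver and by 0.806- to 0.969-fold in brain and testis. On the deposited FPKM, KO liver held 3.60%, 1.69% and 3.35% of the WT testis mean (2.88 ± 1.04%, SD, n = 3). With plain library totals these became 2.09%, 0.979% and 2.00% (1.69 ± 0.618%). With FPKM rescaled to equal sums per library, as in TPM, the mean was 1.45 ± 0.521%. KO brain held 1.98%, 1.17% and 2.02% on the FPKM scale (1.73 ± 0.480%), 1.85 ± 0.525% by library totals and 2.58 ± 0.744% with equal sums. WT brain held 0.0175% on the FPKM scale and 0.0189% by library totals.

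The order of liver and brain turned with the scale. By FPKM the KO liver mean was 1.67 times the KO brain mean, and a liver library was the higher in 7 of 9 pairings. By library totals the KO brain mean was 1.09 times that of liver, at 10.97 ± 3.12 against 10.04 ± 3.67 CPM per kilobase (SD, n = 3 each). With equal sums it was 1.78 times that of liver. The ranges of the KO libraries overlapped on all 3 scales. Between libraries of the same number, liver was higher in 3 of 3 by FPKM, and brain was higher in 3 of 3 by library totals and in 3 of 3 with equal sums. Deviations of same-numbered KO liver and KO brain libraries over all genes correlated at 0.145, 0.144 and 0.236. Those of unlike number correlated at -0.145 to -0.0151. This is a hint, from the data and not from the labels, that a number may mark the same animal, which was not tested. The order of the tissues is thus set by the scale in these libraries. WT testis exceeded KO liver by 34.7-fold by FPKM, 59.2-fold by library totals and 69.0-fold with equal sums, and exceeded KO brain by 58.0-, 54.1- and 38.8-fold. From highest to lowest the groups stood as testis of both genotypes, KO liver and KO brain, WT brain and WT liver; the neighbours that overlapped were KO and WT testis, KO liver and KO brain, and WT brain and WT liver.

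**Figure D2:**
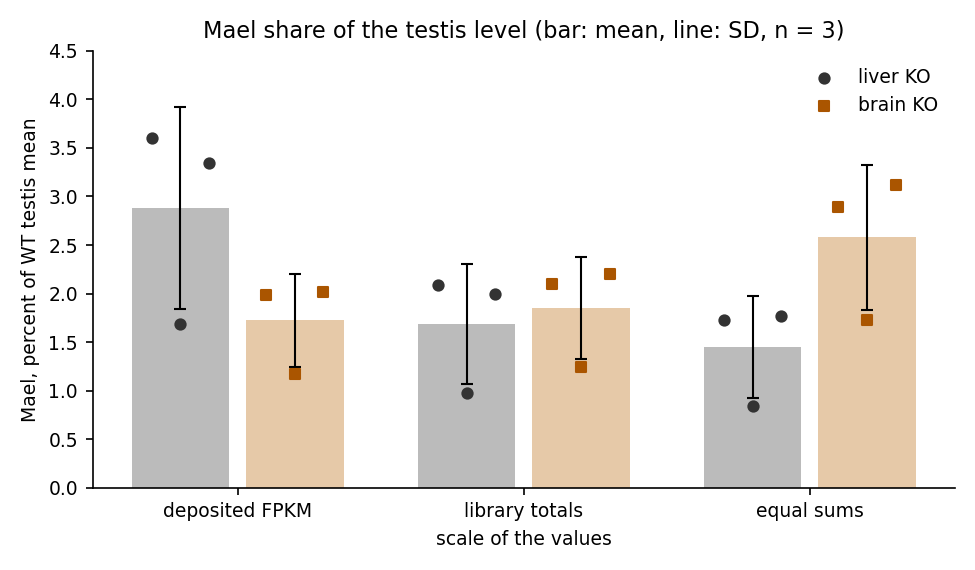
Mael in KO liver and KO brain as a percent of the WT testis mean on 3 scales: deposited FPKM, CPM, and FPKM rescaled to equal sums. Bars are means, lines are SD over 3 libraries and points are libraries; liver is the higher mean on the first scale (2.88% against 1.73%) and brain on the other two (1.85% against 1.69%, and 2.58% against 1.45%).

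Some liver and brain libraries also held transcripts of spermatids, the late germ cells of testis. The list of 10 spermatid markers summed to 69 to 96 reads in WT liver, 55 to 171 in KO liver, 133 to 262 in WT brain and 168 to 360 in KO brain. Gapdhs and Tssk6 gave most of these reads in the WT libraries. Tnp1, Odf1, Akap4 and Smcp were at 0 in all WT liver libraries. The other 8 markers, a choice made after their values were seen, summed to 4, 2 and 6 reads in WT liver and to 0, 101 and 96 reads in KO 4, 5 and 6. In brain they summed to 12, 6 and 112 reads in WT and to 7, 217 and 83 reads in KO. A testis library held 306482 to 482784 reads of the same 8 genes.

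The library of KO liver with the most Mael, KO 4 with 409 reads, had no read of any of the 8 spermatid markers. KO brain 4 had 448 Mael reads beside 7 reads of them. At the testis ratio of Mael to these markers, the marker reads would go with 0, 5.66 and 5.38 Mael reads in KO liver and with 0.392, 12.2 and 4.65 in KO brain. In WT brain 3, where 10 of the 13 WT brain Mael reads were found, they would go with 6.28. Taking the marker share off each library left Mael at 2.85% of WT testis in KO liver and 1.70% in KO brain on the FPKM scale. Without the libraries carrying these transcripts (liver KO 5 and KO 6; brain WT 3, KO 5 and KO 6), the log2 difference of Mael was 7.56 in liver and 6.36 in brain, which depends on the pseudocount. These figures rest on 8 markers chosen after their values were seen. The expected reads and the subtraction also assume the Mael-to-marker ratio of whole testis. The source of the Mael reads was not tested.

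The marker lists of the other cell types of testis hold genes that liver and brain also express. The 10 spermatocyte markers summed to 14.3 to 17.0 CPM in WT and 16.9 to 19.7 in KO liver, and to 90.5 to 98.0 in WT and 92.1 to 100.2 in KO brain. The 8 spermatogonium markers summed to 190 to 321 CPM in WT and 224 to 267 in KO liver, and to 591 to 667 and 535 to 623 in brain. The 7 Sertoli cell markers summed to 3.15 to 4.36 CPM in WT and 3.70 to 8.24 in KO liver, and to 229 to 306 and 260 to 321 in brain. The 6 Leydig cell markers summed to 9.65 to 14.4 CPM in WT and 10.1 to 11.95 in KO liver, and to 11.1 to 13.1 and 10.7 to 12.3 in brain. Stra8 (spermatogonia), Defb36 (Sertoli cells) and Hsd17b3 (Leydig cells) were at 0 in all liver and brain libraries. Among the spermatocyte markers, Pgk2 and Piwil1 were at 0 in WT liver but not in KO liver, where Piwil1 had 0, 6 and 1 reads. In brain Piwil1 had 3, 7 and 4 reads in WT and 3, 9 and 7 in KO. Dmrt1 of spermatogonia was at 0 in WT liver and WT brain and had 1 read in KO liver and 1 in KO brain. Rhox5 of Sertoli cells had 0 reads in WT and 5 in KO brain, but 14 in WT and 1 in KO liver. The part of these cell types in the Mael level was not tested.

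**Figure D3:**
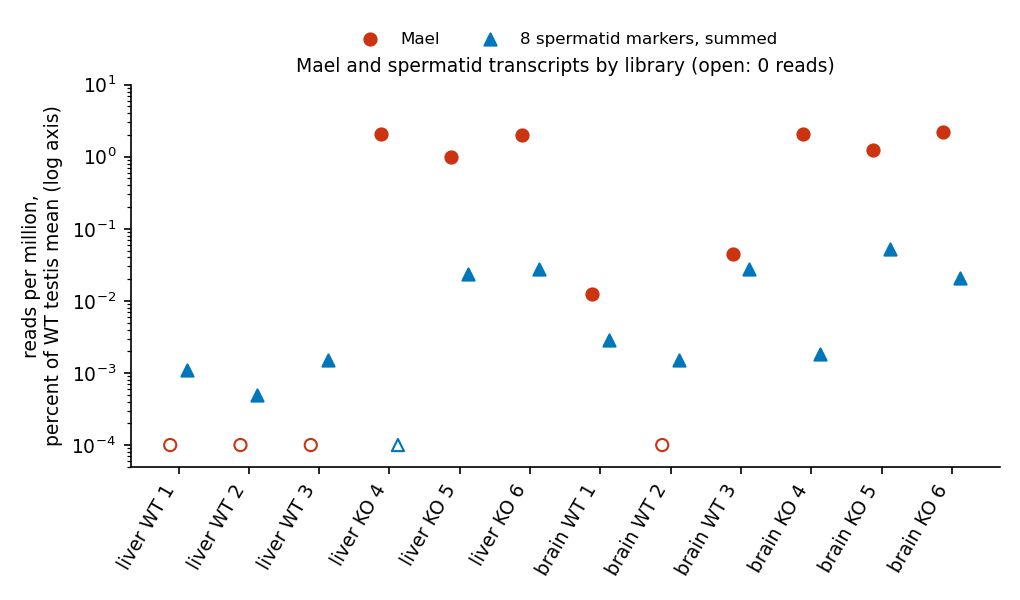
Mael (circles) and the sum of 8 spermatid markers (triangles) in each liver and brain library, as a percent of the WT testis mean in CPM, on a log axis; open symbols at the bottom are libraries with 0 reads. In all 6 KO libraries Mael lies between 0.979% and 2.20%, while the markers lie at 0.0529% or less.

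The piRNA pathway was described through a list of 30 genes, chosen with earlier results of these data known. It spans PIWI proteins (Piwil1, Piwil2, Piwil4), the tudor domain proteins that assemble germ granules, the helicases Ddx4 and Mov10l1, and factors that cut, trim and methylate piRNAs such as Pld6, Pnldc1 and Henmt1. In WT testis Mael had the highest FPKM of the 30. By share of the WT testis level in CPM it ranked 8th of the 30 in KO liver and 14th in KO brain. Some of the genes above it had sizeable shares in WT too. Tdrkh, whose product anchors PIWI proteins on mitochondria, was at 14.7% in KO liver and 93.7% in KO brain (7.54% and 85.5% in WT). Others in brain stood higher in KO than in WT: Henmt1 (15.6% against 2.99%), Gpat2 (4.87% against 0.865%) and Ddx4 (2.67% against 0.464%). Pnldc1 went the other way (7.18% against 10.9%). In KO liver, Piwil4 stood above Mael at 3.17%, on 2 reads in all.

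Of the 29 members other than Mael, 7 had enough reads in liver to be tested (10 reads in 3 or more of 6 libraries). None of the 7 was called by limma at an adjusted p under 0.05, where 0.0212% of all genes were called, and 2 had an unadjusted p under 0.05. The log2 fold change was above 0 for 4 of the 7 and the median was 0.02, against 0.00 for all genes tested, 50.2% of which lay above 0. The KO libraries exceeded all WT libraries for 2 of the 7, Ddx4 and Tdrkh, as for 4.94% of all genes tested, and for 3 of the 22 that were too low to be tested. Ddx4 passed the read filter only through its KO libraries. Ddx4, the germ cell helicase also known as Vasa, had 0, 0 and 2 reads in WT and 24, 22 and 35 in KO liver. Tdrkh had 44, 85 and 71 reads in WT and 107, 123 and 141 in KO, with a log2 fold change of 0.93 ± 0.23 (SE; limma adjusted p = 0.686).

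In brain 21 of the 29 other members were tested, 1 was called higher, Henmt1, and none lower. Over all tested genes 0.0837% were called, 0.067% higher and 0.0167% lower. Henmt1, the methyltransferase that caps the 3′ end of piRNAs, had 19, 17 and 20 reads in WT and 81, 94 and 107 in KO brain. Its level rose from 0.255 ± 0.0198 to 1.33 ± 0.141 FPKM (SD, n = 3 each), a log2 fold change of 2.01 ± 0.14 (SE; limma adjusted p = 0.00264). The median of the 21 was 0.15 against 0.01 over all tested genes, and 16 lay above 0, where 53.3% of all genes did. The KO libraries all exceeded the WT libraries for 7 of the 21, against 4.99% of all genes tested, and all fell below them for 1, against 4.09%. Among the 8 members too low to be tested these counts were 2 and 2. Of the 21, only Mov10l1 had no WT library at 10 reads. Gpat2, Spocd1 and Tdrd12 had fewer than 3 WT libraries at 10 reads, so they too needed KO libraries to pass the filter. Mov10l1 and Gpat2 are among the 7 with all KO libraries higher, an order that the filter favoured for them. Because the list was chosen with earlier results of these data known, its counts are a description and support nothing.

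Ddx4 had 58, 34 and 78 reads in WT and 259, 217 and 466 in KO brain, with a log2 fold change of 2.35 ± 0.33 (SE; limma adjusted p = 0.111). Gpat2, a mitochondrial acyltransferase of germ cells linked to piRNA production, had 6, 14 and 26 reads in WT and 66, 97 and 91 in KO brain (2.16 ± 0.32, SE; limma adjusted p = 0.138). Tdrd1, a tudor scaffold protein, had 14, 12 and 27 reads in WT and 54, 38 and 81 in KO brain (limma adjusted p = 0.663). The groups of these 3 genes did not overlap, though none passed the test. Their KO levels were lower than that of Mael: 3.94 ± 1.61 FPKM for Ddx4, 1.22 ± 0.186 for Gpat2 and 0.402 ± 0.148 for Tdrd1 (SD, n = 3 each).

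In testis all 30 genes were tested and none was called (limma), with 1 at an unadjusted p under 0.05. The KO libraries exceeded all WT libraries for 4 of the 30, as they did for 7.57% of all genes tested. Their median log2 fold change was 0.07, against 0.03 for all genes tested. When the libraries with spermatid transcripts were left out, 1 KO library remained in liver and in brain, too few for calls to be compared. The log2 fold change of Henmt1 in brain was then 1.93, against 2.01 in the main fit.

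**Figure D4:**
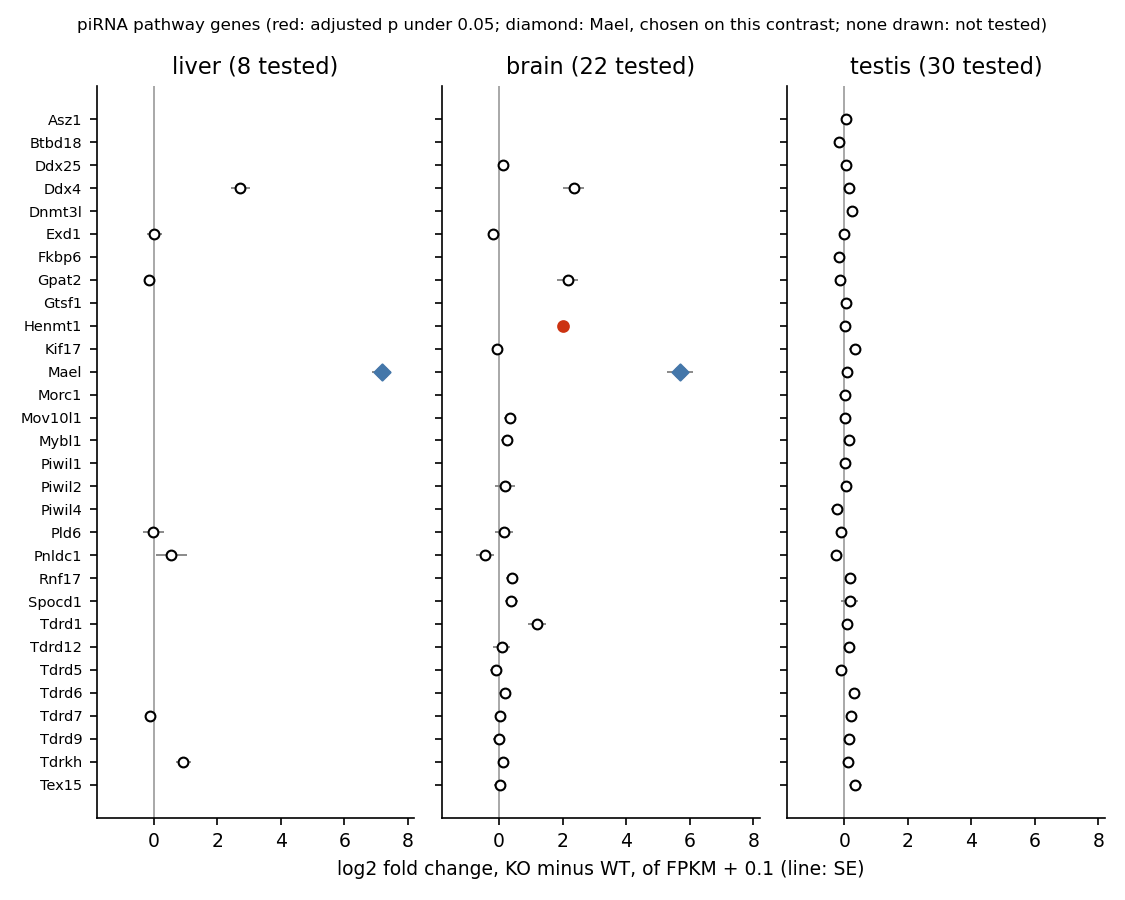
Log2 fold change (KO minus WT) of FPKM + 0.1 for each of the 30 piRNA pathway genes in liver, brain and testis; lines are SE, red points passed an adjusted p under 0.05, diamonds are Mael where it was chosen on the contrast, and genes with too few reads to be tested have no symbol; the number tested in each panel includes Mael. Mael lies at 7.17 in liver and 5.69 in brain, values that depend on the pseudocount of 0.1, and the other members lie at 2.72 or less.

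A second list held 20 germ line genes known as PRC1.6 targets, and Mael is one of them. Of the 19 others, 7 were tested in liver, and 2 of them, Syce1 and Slc25a31, were called higher and none lower, beside 0.0212% of all genes called. The KO libraries exceeded all WT libraries for 6 of the 7, beside 4.94% of all genes. However, 4 of the 7 (Syce1, Slc25a31, Tex11 and Ddx4) reached the read filter only through their KO libraries and so had to differ, and 12 members were too low to be tested; these counts describe the list and support nothing. In brain 12 of the 19 were tested, Syce1 and Slc25a31 were called higher and none lower (0.0837% of all genes were called), and the median was 0.15. The KO libraries exceeded WT for 4 of the 12 (4.99% of all genes) and fell below for 1, Dazl (4.09%). There 3 of the 12, Syce1, Slc25a31 and Taf7l, reached the filter only through KO libraries. In testis all 20 were tested, none was called by limma, none had an unadjusted p under 0.05, and the median was -0.05. Without the libraries that carry spermatid transcripts, 1 KO library was left in liver and in brain, so only effect sizes are given. The log2 fold change of Syce1 was then 4.48 in liver and 2.23 in brain (4.23 and 2.53 in the main fit). That of Slc25a31 was 5.16 and 3.39 (4.80 and 3.67 in the main fit).

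The genes whose levels most resembled Mael were found by Pearson's r of log2(FPKM + 0.1). Over all 18 libraries, among 25130 genes, they were Slc25a31 (r = 0.987), Syce1 (0.970), Tex11 (0.951), Rbm46 (0.943) and Luzp4 (0.930). Over the 12 liver and brain libraries, among 19209 genes, they were Syce1 (0.971), Slc25a31 (0.961), Xlr4b (0.947), Tex11 (0.930) and 8030474K03Rik (0.904). The libraries share tissue and genotype, so these values describe the pattern and carry no test. Xlr4b belongs to a family of near-identical copies, and its reads may be split among them.

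Slc25a31 encodes the ADP/ATP carrier of male germ cells. It had 0, 4 and 3 reads in WT liver and 153, 96 and 145 in KO liver, with KO 5 again the lowest. In brain it had 3, 1 and 1 reads in WT and 69, 68 and 131 in KO. Its log2 fold change was 4.80 ± 0.38 in liver (SE; limma adjusted p = 0.0203) and 3.67 ± 0.26 in brain (adjusted p = 0.00264). Slc25a31 was picked for its likeness to Mael in these same libraries. It also reached the read filter only through KO libraries in both tissues. A higher KO level was thus built into the choice, and these p-values support nothing. The liver call held under 5 of 14 alternatives. It was lost when WT and KO libraries were paired by file-name number (adjusted p = 0.122) and when KO 4 (0.117), KO 6 (0.0915), WT 2 (0.0859) or WT 3 (0.0686) was left out, and also with no read filter (0.0634), with a pseudocount of 0.01 FPKM (0.465) and with voom on recovered reads (0.276).

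Syce1 encodes a protein of the synaptonemal complex, which joins paired chromosomes in meiosis. No read was found in WT liver, and KO liver held 39, 39 and 29. In brain WT libraries held 9, 4 and 4 reads and KO libraries 40, 47 and 60. The KO liver mean of 1.79 ± 0.303 FPKM (SD, n = 3) was 12.6 times the floor of 3 reads per WT library. The fold over WT was thus at least 12.6, and the gene was called in liver (limma adjusted p = 0.00104). Syce1 was picked in the same way as Slc25a31. It too passed the filter only through KO libraries in both tissues, so its p-values support nothing. In brain its log2 fold change was 2.53 ± 0.23 (SE; limma adjusted p = 0.0142), a call lost without WT 2 (0.0766), WT 3 (0.0617), KO 4 (0.0610), KO 5 (0.0908) or KO 6 (0.0739), and with no read filter (0.0758). In contrast to Mael and Slc25a31, the lowest KO liver value of Syce1 by reads was in KO 6. Tex11, also a meiosis gene, was less abundant, with 0 reads in WT liver, 11, 14 and 15 in KO liver, and 9, 12 and 19 in KO brain against 3, 5 and 4 in WT brain.

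Mael was then placed among all genes restricted to testis, defined by a WT testis mean of 10 CPM or more and by WT liver and WT brain means of no more than 1% of it. There were 1491 such genes. In KO liver their median share of the WT testis level was 0.0213% (0% in WT), and 9 genes exceeded 1%. Mael ranked 3rd at 1.69%, after Slc25a31 (8.93%) and Cc2d2b (2.24%), and before Muc16 (1.49%) and Ccdc158 (1.47%). In KO brain the median was 0.0782% (0.0549% in WT), 51 genes exceeded 1%, and Mael ranked 8th at 1.85%. The highest shares were those of Slc25a31 (5.60%), Taf7l (4.67%), Ddx4 (2.67%), 4933407I08Rik (2.15%) and Pth2 (1.96%).

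Several of these shares rest on few reads. 4933407I08Rik had 6, 0 and 8 reads in KO brain, Pth2 had 3, 7 and 13, and Muc16 had 5, 9 and 7 in KO liver. Their WT shares in those tissues were 0.861%, 0.913% and 0.888%, and not every KO library exceeded every WT library. By the definition of the set no gene could exceed 1% in WT, so the counts above 1% in KO have no WT counterpart. By the number of reads in the KO libraries Mael was 1st of the 1491 in both tissues, with 1038 reads in KO liver and 1228 in KO brain. These ranks use the values that chose Mael and are given as a description.

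Genes next to Mael were examined to see whether the difference extended along the chromosome. The window of 500 kb on each side held 31 other genes of the files, of which 7 were tested in liver, 11 in brain and 12 in testis, and none was called in any tissue (limma). Unadjusted p-values under 0.05 were found for 2 genes in liver, 2 in brain and 0 in testis. Among all tested genes, limma called 0.0212% (liver), 0.0837% (brain) and 0.00448% (testis). Unadjusted p-values under 0.05 were reached by 618 of 14124 genes (liver), 800 of 17922 (brain) and 922 of 22341 (testis). Calls were so rare that their absence among 7 to 12 genes cannot decide whether the difference extended. The log2 fold changes of the tested neighbours lay between -0.35 and 0.92 (liver), -0.14 and 0.80 (brain) and -0.25 and 0.25 (testis).

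Ildr2, which encodes a membrane protein of the immunoglobulin superfamily, starts 15.4 kb from the Mael start on the opposite strand. Its log2 fold change was 0.19 in liver, -0.14 in brain (limma adjusted p = 0.980) and -0.16 in testis. Its KO and WT libraries did not overlap in brain, as for 9.08% of genes tested there in either direction. Pogk, a gene derived from a DNA transposon, had the largest difference of the window in liver, with 252, 240 and 199 reads in WT and 373, 541 and 366 in KO. Its groups did not overlap there, which held for 9.52% of tested genes in either direction, and its log2 fold change was 0.92 ± 0.17 (SE; limma adjusted p = 0.525). In brain and testis Pogk differed by 0.09 and 0.24. It passed in liver when the 18 libraries were fitted together (adjusted p = 0.00118).

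**Figure D5:**
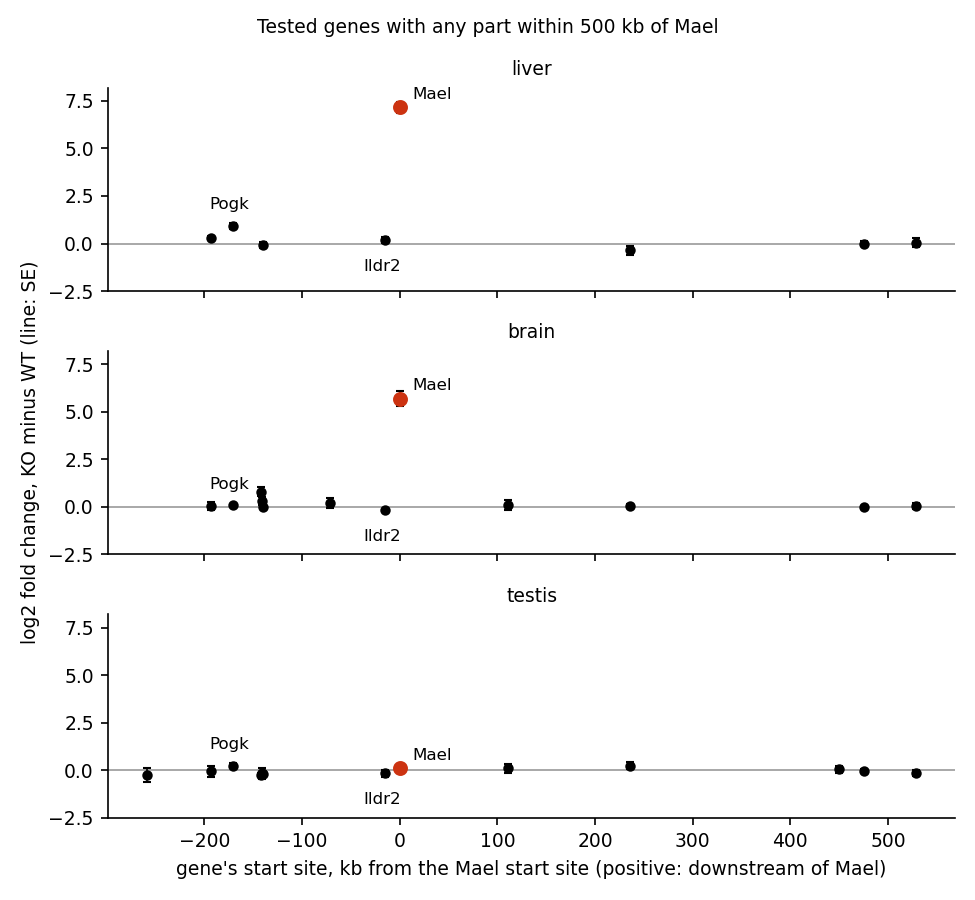
Log2 fold change (KO minus WT) of the tested genes with any part within 500 kb of Mael, against the distance of their start site from that of Mael in kb, for liver, brain and testis; lines are SE and Mael is red. Apart from Mael, the points lie between -0.35 and 0.92 in all 3 tissues.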

How the data were processed

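Per the labels, poly-A RNA of 18 libraries was sequenced. Per the submitters' processing notes, HISAT2 2.0.5, featureCounts 1.5.0-p3, DESeq2 1.16.1 and the build mm10 were used. The authors deposited FPKM per gene and library; all deposited values, multiplied by gene length, were whole multiples of 1 step per library (100% within 0.01 reads), which gave the read counts and totals. The use of strand in counting is not given in the sources used here.

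Each tissue was fitted with limma 3.58.1 (R 4.3.3) with a mean-variance trend on log2(FPKM + 0.1), keeping genes that reached 10 reads in 3 or more of 6 libraries, with Benjamini-Hochberg adjustment over all genes tested; a gene was called at an adjusted p under 0.05. A fold change on this scale understates that of low genes. Called genes were 3 higher and 0 lower of 14124 in liver (0.0212% in all), 12 higher and 3 lower of 17922 in brain (0.0837%) and 0 higher and 1 lower of 22341 in testis (0.00448%); the liver and brain counts include Mael. Median log2 fold changes were 0.00 in liver, 0.01 in brain and 0.03 in testis. Other steps used scipy 1.17.1, pandas 2.3.3, numpy 2.4.6, matplotlib 3.10.9 and Python 3.11.15. CPM used library totals, and rescaled FPKM used equal sums per library.

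Mael and all lists were chosen with earlier results of these data known. Genes were named by rule: Mael, Pcgf6, genes within 500 kb, list members called or most changed, the 5 genes most correlated with Mael, the 5 testis-restricted genes with the highest shares, and cell type markers. The labels give WT and KO libraries no shared numbers, but file names number both 1 to 3: deviations of same-numbered libraries correlated at 0.354, 0.162 and 0.299 in liver, and at -0.0848 to 0.252 in brain and testis. The fits reported are without this pairing; in liver, where every correlation was above 0.1, a paired value is given where it changes a call (2 genes called in place of 3). Promoter sequences are RefSeq's, matched by symbol for 7 of 8 genes.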

Additional observations from a re-analysis of the deposited data

How the results depend on the processing

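The testis difference of Mael stayed between 0.0119 and 0.158 (log2) under all 13 alternatives, with adjusted p from 0.847 to 0.988. The share of WT testis in KO liver moved to 1.69% with library totals and 1.45% with equal sums, and that in KO brain to 2.58% with equal sums; leaving out 1 library gave 2.52 to 3.48% and 1.58 to 2.00%. Testis-restricted ranks were 3 to 4 in liver and 6 to 11 in brain.

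Of the 5 genes most like Mael over 18 libraries, 3 were kept with a pseudocount of 1 FPKM and 1 with Spearman's rho; over 12 libraries, 3 were kept with Spearman's rho. A single fit over 18 libraries called 87 genes in liver, 27 in brain and 36 in testis; with Mael included in all list counts here, 3 of the piRNA list in liver and 5 in brain, 6 and 5 of the PRC1.6 list, and 1 neighbour of Mael in liver. Pairing by file-name number (the replicate block) gave 9 called genes in brain, where Ddx4 was then called (adjusted p = 0.00564) and Syce1 was not (0.0936); Mael in testis stayed at 0.09 (0.924), and Slc25a31 in liver is given above. In brain and testis the libraries share only a number. An alternative added after seeing the data left out the libraries carrying spermatid transcripts. There 1 KO library is assumed to vary like the WT libraries, so its list counts are not given here. In the main fit the 1 piRNA gene called in liver was Mael, chosen on that contrast, and voom on recovered reads called 0. Voom also called 2 genes in testis, a pseudocount of 0.01 called 1 piRNA gene in brain, no filter called 0 genes in testis and equal sums 2. The cause of these shifts was not tested.

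Leaving out 1 library gave 2 to 5 called liver genes, 8 to 12 called brain genes and 0 to 3 called testis genes, and 2 to 3 of the PRC1.6 list in liver and in brain. The list counts again include Mael as a member. With 3 libraries a group, the depth limits low genes: a count of 0 allows 3 reads.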
